A study of Mus musculus with 7 samples.

Results

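Satellite cell identity genes are genes by which the resident stem cell of skeletal muscle is recognised. The 9 genes described here are Pax7, Myf5 and Msc, which encode transcription factors, Calcr, Fgfr4 and Megf10, which encode surface receptors, Cdh15 and Vcam1, which encode adhesion proteins, and Chrdl2, which encodes a secreted protein. They were chosen by symbol, with earlier results of these data known. All probe sets that the platform annotation assigns to one of these symbols alone were taken, which gave 16 of the 34945 probe sets with a single symbol and 9 of the 18193 genes measured. Each gene is led by the probe set with the highest mean log2 level over the 7 arrays, and the other probe sets are described where they differ.

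Satellite cells lie between the muscle fibre and its basement membrane and are kept quiescent in resting muscle. When a muscle is injured or loaded they enter the cell cycle, and many of their descendants become myoblasts that fuse with fibres, while others return to the niche. Pax7 marks both resting and dividing satellite cells and is needed for their upkeep in the adult, Myf5 commits cells to the muscle lineage, and calcitonin receptor signalling holds resting cells in quiescence. Several of the other genes are not particular to satellite cells, since Vcam1 is also made by activated endothelium, fibroblasts and other stromal cells.

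The arrays measured total RNA of plantaris muscle, a small plantar flexor of the hindlimb, from Pax7-DTA mice 4 months old. Every mouse carried both parental alleles, Pax7-CreER and Rosa26-DTA: a recombinase that is active only with tamoxifen is expressed where Pax7 is, and its action switches on diphtheria toxin from the Rosa26 locus. Mice had been given vehicle or tamoxifen, and the muscle was either sham operated or overloaded for 1 week by removal of its synergists. There was 1 array for vehicle sham and 1 for tamoxifen sham, both of males. There were 2 arrays for vehicle overload (replicate 1 female, replicate 2 male) and 3 for tamoxifen overload (replicates 1 and 2 male, replicate 3 female). All mice carry the toxin allele and none received tamoxifen without it, so effects of tamoxifen itself and of the toxin cannot be told apart. The recombinase is driven by Pax7, which is itself one of the 9 genes. The titles read as single mice, whereas the design text speaks of muscles pooled from 11 animals, so the number of animals behind an array is uncertain and p-values measure the spread between these arrays, which may be technical.

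For the genes whose level was lower on every tamoxifen overload array than on every vehicle overload array, sequence before the transcription start is shown for 4 of them, so that they can be compared by the elements their own transcription factors read. Myf5 and Msc belong to the basic helix-loop-helix proteins, which read the E-box, CANNTG, a motif that is the same on both strands. The paired-domain protein Pax7 also holds a homeodomain, whose core is TAAT when read on one strand and ATTA when read on the other. The RefSeq promoter table of build GRCm38.p6 had entries for 5 of the 9 genes, with 6 starts, 2 of them for Calcr. The 250 bases before the start are given 5′ to 3′ on the gene's strand for 3 receptor and adhesion genes, with E-boxes in capitals. For Myf5 the 30 bases around its TAAT nearest to the start are given, with TAAT in capitals. The Myf5 start used, at base 107486134, is not the gene's outer edge, 107486927, so its window lies inside the gene's span. The same holds for the window of Pax7.
Calcr, outer start, chr6:3764714-3764963, minus strand: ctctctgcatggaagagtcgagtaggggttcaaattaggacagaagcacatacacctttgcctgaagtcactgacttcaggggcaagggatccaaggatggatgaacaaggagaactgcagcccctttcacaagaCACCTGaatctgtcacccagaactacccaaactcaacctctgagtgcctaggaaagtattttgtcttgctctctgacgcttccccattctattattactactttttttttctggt
Fgfr4, chr13:55152568-55152817, plus strand: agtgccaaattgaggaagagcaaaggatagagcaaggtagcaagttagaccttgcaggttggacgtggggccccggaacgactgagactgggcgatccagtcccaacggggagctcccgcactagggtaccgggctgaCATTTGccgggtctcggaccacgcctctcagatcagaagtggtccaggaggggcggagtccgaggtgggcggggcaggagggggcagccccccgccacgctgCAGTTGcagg
Cdh15, chr8:122848124-122848373, plus strand: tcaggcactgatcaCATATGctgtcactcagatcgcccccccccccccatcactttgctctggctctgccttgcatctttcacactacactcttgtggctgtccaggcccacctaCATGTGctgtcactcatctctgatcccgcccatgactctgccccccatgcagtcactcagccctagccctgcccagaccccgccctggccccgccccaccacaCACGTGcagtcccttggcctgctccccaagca
Myf5, chr10:107486149-107486178, minus strand: tggtgggatatgcTAATaacgcccagctac

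The Cdh15 window held 3 E-boxes: CATATG, found 236 to 231 bases before the start, then CATGTG at 135 to 130 bases, then CACGTG at 32 to 27 bases. The Fgfr4 window held CATTTG at 112 to 107 bases and a second E-box, CAGTTG, at 10 to 5 bases before the start, and the outer Calcr start had CACCTG 115 to 110 bases upstream. No E-box was found in the windows of Pax7 and Myf5, nor before the inner start of Calcr. The homeodomain core was found 3 times before Myf5 and 3 times before the outer start of Calcr, and in none of the other windows. The motif GTGGGAA, read by the Notch effector RBPJ and searched on both strands, was in none of the 6 windows. Among all 32851 windows of the same length an E-box was present in 66.2%, the homeodomain core in 54.9% and GTGGGAA in 5.42%. These matches describe letters in a short window and say nothing of binding.

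Every array had a trimmed mean intensity of 500, with medians of 88.2 to 127.7, and 66.6% to 72.6% of genes lay above background. Background is an intensity of 54.2, below which 95% of 76 genes of smell, pheromone and taste receptors had their mean. Of the 9 satellite cell genes, 8 lay above it on the vehicle sham array and 5 on the tamoxifen sham array. All 9 did so on both vehicle overload arrays, and 8, 6 and 7 did so on tamoxifen overload arrays 1, 2 and 3. Myofibre markers were bright on every array, with summed intensities of 10 genes between 268799.75 and 402938.34.

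**Figure D1:**
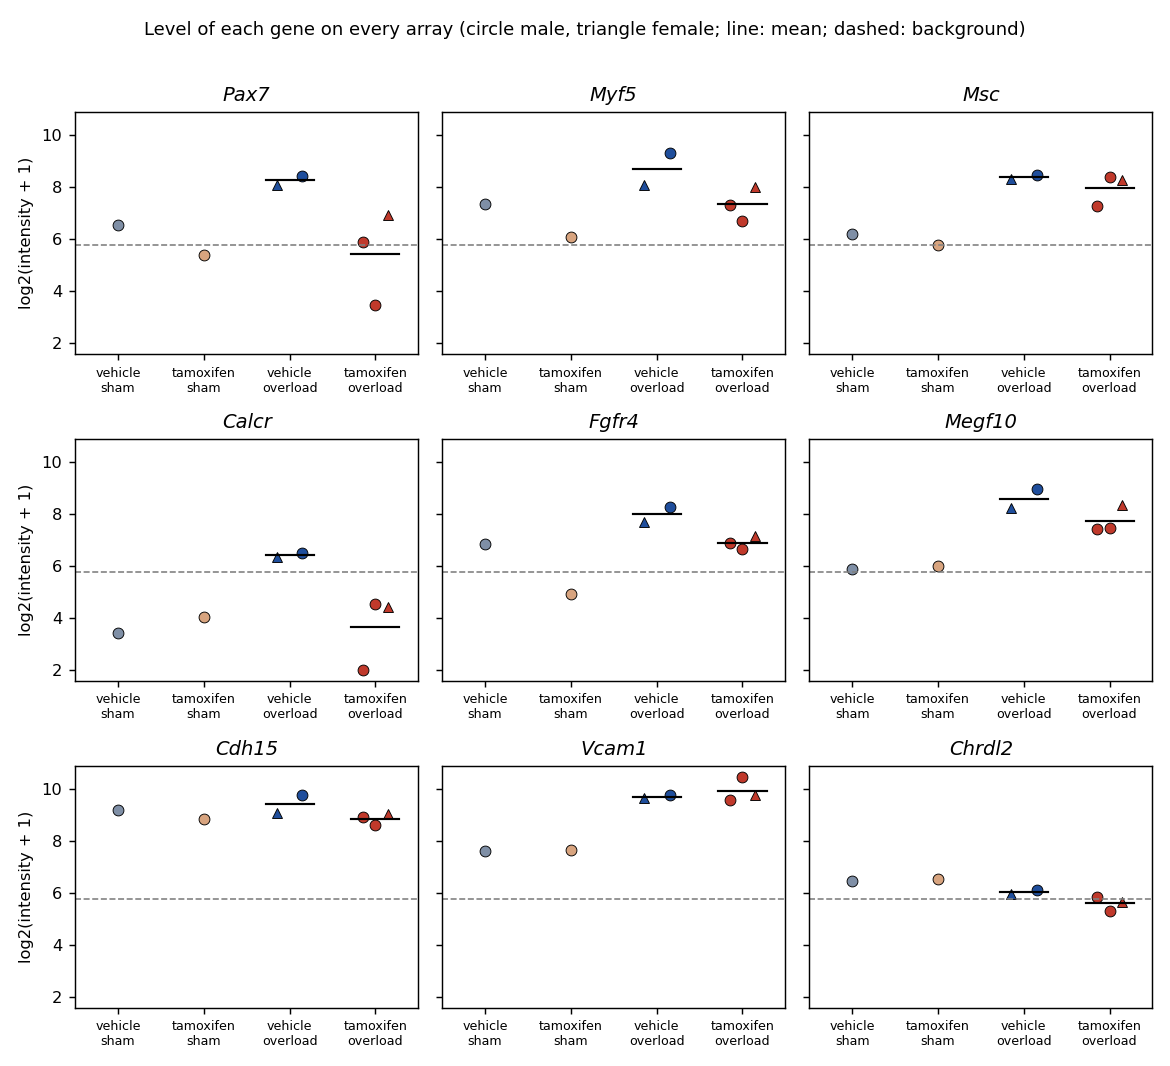
Level of each of the 9 genes on every array as log2(intensity + 1), by group; circles are males, triangles females, black lines the means of the overload groups and the dashed line the background level of 5.79. Pax7, Myf5, Calcr, Fgfr4, Cdh15 and Chrdl2 have all 3 tamoxifen overload points below both vehicle overload points, whereas Msc, Megf10 and Vcam1 lie above both sham points on all 5 overload arrays.

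The first question was what 1 week of overload did to these genes, taking both treatments together (5 arrays of overloaded and 2 of sham muscle). Msc, Fgfr4, Megf10 and Vcam1 rose, by 2.94-fold for Fgfr4 and by 4.39- to 4.87-fold for the other 3, and no member fell. The folds of Fgfr4 and Msc include tamoxifen sham levels below background (29.9 and 53.9). The Fgfr4 call held on its lead probe set alone, and with probe sets averaged per gene 3 of the 9 genes were called. These are 4 of 9 genes higher, beside 14.7% of all genes, and 0 of 9 lower, beside 8.16% of all genes (limma, adjusted p under 0.05 over all genes). The median difference of the 9 was 1.28 on the log2 scale against 0.07 for all genes. Pax7, Myf5, Calcr, Cdh15 and Chrdl2 did not pass. Arrays of overloaded and sham muscle did not overlap for 3 genes that were higher, Msc, Megf10 and Vcam1, beside 23.1% of all genes, and for 1 that was lower, Chrdl2, beside 18.3%. In bulk muscle, fewer cells of a type and less RNA per cell cannot be told apart, and all values are relative to the array mean.

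Within vehicle-treated mice 3 of 9 genes rose (Msc, Megf10, Vcam1), beside 6.35% of all genes, and 0 fell, beside 2.44%. Within tamoxifen-treated mice 3 of 9 rose (Msc, Fgfr4, Vcam1), beside 9.98%, and 0 fell, beside 4.9%. Each of these contrasts rests on a single sham array, which was assumed to vary like the overload arrays. The interaction, which tests whether the response to overload differed between treatments, called 0 members and 0% of all genes in either direction (limma; 1021 of 18193 genes had an unadjusted p under 0.05, and an ordinary linear model called 0, with 990 at an unadjusted p under 0.05). All overload calls used variances moderated along an intensity trend. Without that trend, and in an ordinary linear model, none of the 18193 genes passed in any of the 3 overload contrasts, although 5234 and 4142 genes had an unadjusted p under 0.05 for the mean of both treatments. Without vehicle overload replicate 2, 2 of the 9 genes passed for the mean of both treatments and 0 within vehicle.

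**Figure D2:**
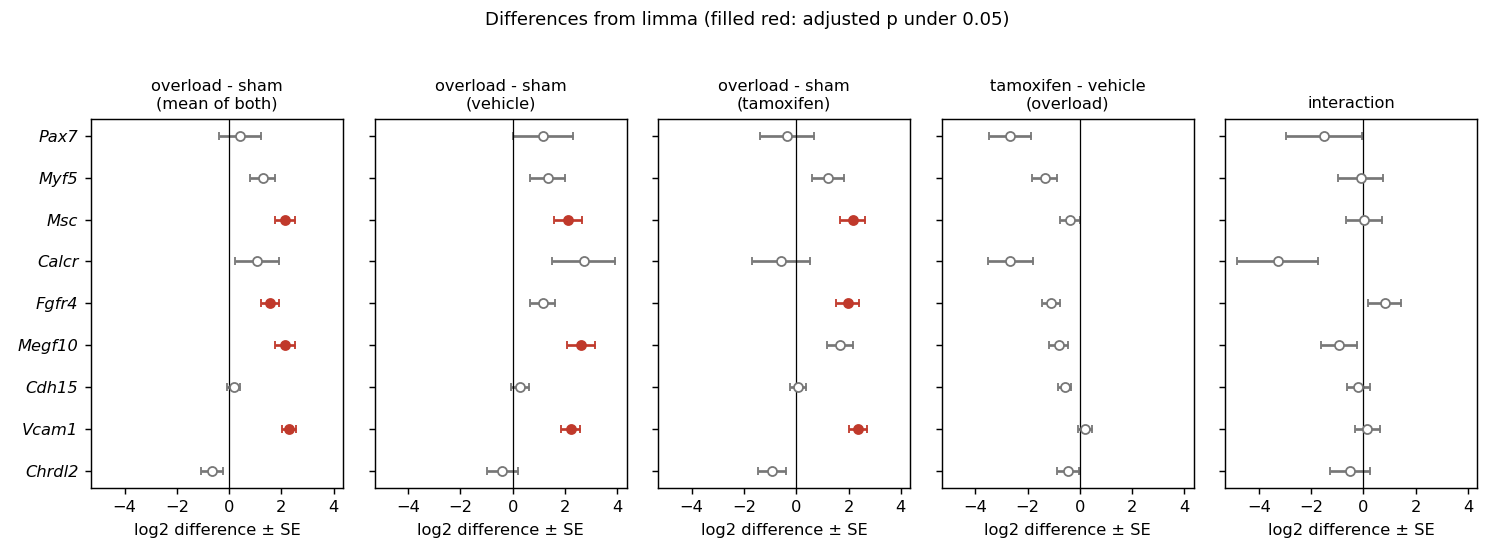
Log2 difference with its moderated standard error for each gene in 5 comparisons fitted with limma; filled red points have an adjusted p under 0.05 over all genes. Vcam1 and Msc pass in all 3 overload contrasts, and no gene passes for tamoxifen against vehicle or for the interaction.

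The second question was how the overloaded muscle differed between tamoxifen and vehicle (3 against 2 arrays), the comparison in which the design intends satellite cells to be depleted. No member passed: 0 of 9 were lower and 0 of 9 higher, beside 0% and 0% of all 18193 genes (limma; 1932 genes had an unadjusted p under 0.05, and an ordinary linear model called 0, with 1152 at an unadjusted p under 0.05). The values of 8 of the 9 genes were nevertheless negative, beside 47.2% of all genes, with a median of -0.82 against 0.03. Pax7, Myf5, Calcr, Fgfr4 and Cdh15 had an unadjusted p under 0.05 in the lower direction, 5 of 9 beside 3.28% of all genes. All 3 tamoxifen arrays lay below both vehicle arrays for 6 of the 9 genes (these 5 and Chrdl2), beside 12.6% of all genes, and above both for 0, beside 16.9%. Leaving out an array can only keep or raise the count of lower genes, so it is no check of that count. Without vehicle overload replicate 2 the count was 6, beside 23.8% of all genes.

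Markers of other cell types also had values of one sign in this comparison, though neither they nor any other gene measured passed. All 10 myofibre markers were negative (median -0.18). All 10 macrophage, all 10 endothelial and all 6 tendon markers were positive, with medians of 0.56, 0.35 and 0.64. Endothelial sums were 11489 and 7790 on vehicle overload arrays 1 and 2, against 10646 to 12264 with tamoxifen. Tendon sums were 46812 and 26569, against 41122 to 53438, and pericyte and smooth muscle sums 36602 and 30768, against 36267 to 39084. For these lists only vehicle array 2 lay below the tamoxifen range. Macrophage sums were lower on both vehicle arrays (14088 and 16700) than with tamoxifen (17584 to 24930). Of 9 fibroblast and 10 pericyte and smooth muscle markers 1 each was negative (medians 0.22 and 0.32), of 6 Schwann markers 3 (median 0.01) and of 6 T, B and NK cell markers 1 (median 0.75). Of these last 6, 2 and 0 were above background on vehicle overload arrays 1 and 2. On tamoxifen overload arrays 1, 2 and 3 these were 1, 2 and 3, so their median rests mostly on levels below background. The part of the cell makeup of the muscle in the lower values of the 9 genes was not tested.

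Pax7 (chr4:139737059-139833530, GRCm38.p6) showed an intensity of 92.8 on the vehicle sham array and 41.2, below background, on the tamoxifen sham array. It reached 274 and 349 on vehicle overload arrays 1 and 2, and 57.9, 9.97 and 120 on tamoxifen overload arrays 1, 2 and 3. Vehicle overload had the highest group mean, followed by vehicle sham. The means of both tamoxifen groups lay below background and have no order. Tamoxifen overload arrays spread widely (mean log2 level 5.42 ± 1.78, SD, n = 3) beside vehicle overload (8.28 ± 0.25, SD, n = 2), yet the groups did not overlap. The difference of tamoxifen from vehicle in overload was -2.67 ± 0.81 (SE; limma adjusted p = 0.399, unadjusted p = 0.0108), lower on 3 of 3 arrays. Without tamoxifen overload replicate 1 it was -3.09 and passed (adjusted p = 0.0317), while without vehicle overload replicate 2 it was -1.18.

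For overload against sham Pax7 gave 0.40 ± 0.81 as the mean of both treatments (limma adjusted p = 0.781), 1.15 ± 1.14 within vehicle (adjusted p = 0.608) and -0.36 ± 1.04 within tamoxifen (adjusted p = 0.862). None of these values keeps its sign: without vehicle overload replicate 2 the mean was -0.72 and the vehicle value -0.70, without tamoxifen overload replicate 1 the mean was -0.02, and without tamoxifen overload replicate 2 the tamoxifen value was 0.83. The interaction was -1.51 ± 1.47 (limma adjusted p = 0.997). A second, dimmer Pax7 probe set, 1452510_at, was above background on the vehicle overload arrays alone, at 72.7 and 70.2. On the 3 tamoxifen overload arrays it gave 45.0, 18.5 and 32.9, and it differed between treatments by -1.19 ± 0.56 (limma adjusted p = 0.533). Both probe sets thus ordered the overload groups the same way with no overlap.

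Myf5 (chr10:107482908-107486927), a myogenic determination factor, gave 162 on the vehicle sham array and 67.8 on the tamoxifen sham array. Its intensities were 274 and 633 on vehicle overload arrays 1 and 2 and 159, 103 and 256 on the 3 tamoxifen overload arrays. The female tamoxifen array came close to the female vehicle array, and the groups were separated by that narrow gap. The tamoxifen difference in overload was -1.35 ± 0.48 (SE; limma adjusted p = 0.423), but -0.10 without vehicle overload replicate 2. Overload against sham gave 1.28 ± 0.48 (limma adjusted p = 0.0957), with nearly equal values of 1.33 within vehicle and 1.22 within tamoxifen. This value passed without tamoxifen overload replicate 1 (1.28, adjusted p = 0.0424) and with males alone (1.43, adjusted p = 0.0137), but without vehicle overload replicate 2 it was 0.34 (adjusted p = 0.692), and within vehicle -0.24.

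Msc (chr1:14753344-14756089), the repressor of muscle genes also called MyoR, behaved otherwise. Its intensities were 72.3 and 53.9 on the vehicle and tamoxifen sham arrays and 319 and 359 on the vehicle overload arrays. On the tamoxifen overload arrays they were 154, 339 and 314, so that the range of this group overlapped that of vehicle. All 5 overload arrays exceeded both sham arrays. Overload raised Msc by 2.14 ± 0.38 on the log2 scale (SE; limma adjusted p = 0.00579). Within vehicle the rise was 2.12 ± 0.53 (adjusted p = 0.0472), a call close to the threshold that was lost under 12 of 16 alternatives. Among these were leaving out vehicle overload replicate 2 (1.67), tamoxifen overload replicate 2 (2.00) or either female array (2.30), quantile normalization (1.82), median centring (1.81) and a pseudocount of 16 (1.92). Within tamoxifen it was 2.15 ± 0.48 (adjusted p = 0.0231), a call lost without tamoxifen overload replicate 2 (1.79). The sham array was below background, and the tamoxifen overload mean, taken without the sex term, lay 4.62-fold above background. Tamoxifen against vehicle gave -0.38 ± 0.38 (limma adjusted p = 0.728), with a 95% confidence interval of -1.25 to 0.49.

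Among 12 measured partners of these factors (E and Id proteins, sine oculis homologues and chromatin cofactors), 2 rose and 1 fell with overload, shares close to the 14.7% and 8.16% of all genes. Id2, an inhibitor that binds E proteins, rose by 1.88 ± 0.24 (SE; limma adjusted p = 0.00154), and Tcf12, an E protein, by 0.52 (adjusted p = 0.0466). Six4, a homeodomain factor of the muscle lineage, fell by 0.68 on the log2 scale (adjusted p = 0.0138). None of the 12 passed for tamoxifen against vehicle in overload, nor did any other gene measured.

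Calcr (chr6:3685678-3764713), the calcitonin receptor, was above background on the 2 vehicle overload arrays alone, at 80.9 and 90.4. It gave 9.75 and 15.5 on the vehicle and tamoxifen sham arrays and 3.04, 22.4 and 20.7 on the tamoxifen overload arrays. The levels of those 5 arrays lie below background and have no order. Tamoxifen overload was at least 1.57-fold lower than vehicle overload, and vehicle overload at least 1.57-fold higher than vehicle sham. Neither difference passed, at -2.67 ± 0.86 (SE; limma adjusted p = 0.411) and 2.71 ± 1.21 (adjusted p = 0.221). The second passed without tamoxifen overload replicate 1 (3.08, adjusted p = 0.0296) and was 1.77 without vehicle overload replicate 2 (adjusted p = 0.698). Since 3 of the 4 groups lay below background, the interaction of Calcr is not read.

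Fgfr4 (chr13:55152818-55168759), a fibroblast growth factor receptor, gave 115 on the vehicle sham array and 29.9, below background, on the tamoxifen sham array. Vehicle overload arrays were at 210 and 307, and tamoxifen overload arrays at 119, 99.6 and 142. The tamoxifen overload arrays thus surrounded the vehicle sham level and lay below both vehicle overload arrays. Overload against sham was 1.55 ± 0.34 (SE; limma adjusted p = 0.0147) and within tamoxifen 1.96 ± 0.44 (adjusted p = 0.0234; at least 2.17-fold). Within vehicle it was 1.15 ± 0.48 (adjusted p = 0.197), and the interaction, 0.81 (adjusted p = 0.987), did not separate the treatments. Without vehicle overload replicate 2 the mean was 1.16 and did not pass (adjusted p = 0.169). Tamoxifen against vehicle in overload gave -1.09 ± 0.34 (limma adjusted p = 0.404), and -0.56 without vehicle overload replicate 2.

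The 5 Fgfr4 probe sets did not move alike. On 1427776_a_at the vehicle overload arrays were just above background, at 61.2 and 61.9, and the other 5 arrays were below it, at 3.72 to 23.5. On 1427777_x_at the sham arrays gave 23.0 and 54.0, below background, vehicle overload 127 and 105, and tamoxifen overload 79.2, 58.9 and 46.2. On 1427846_x_at levels stayed between 38.3 and 88.2 on all arrays, and 1427845_at was never above background. Against sham the overload values of the 4 probe sets other than the lead ran from -1.74 to 1.29 and none passed, and with the mean of the 5 probe sets Fgfr4 gave 0.44 (adjusted p = 0.574) for both treatments and 0.03 (adjusted p = 0.981) within tamoxifen. For tamoxifen against vehicle in overload the lead, 1427777_x_at and 1427776_a_at separated the groups with no overlap, with values of -1.09, -0.97 and -2.68, none of which passed. The rise of Fgfr4 with overload thus passed on its lead probe set alone.

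**Figure D3:**
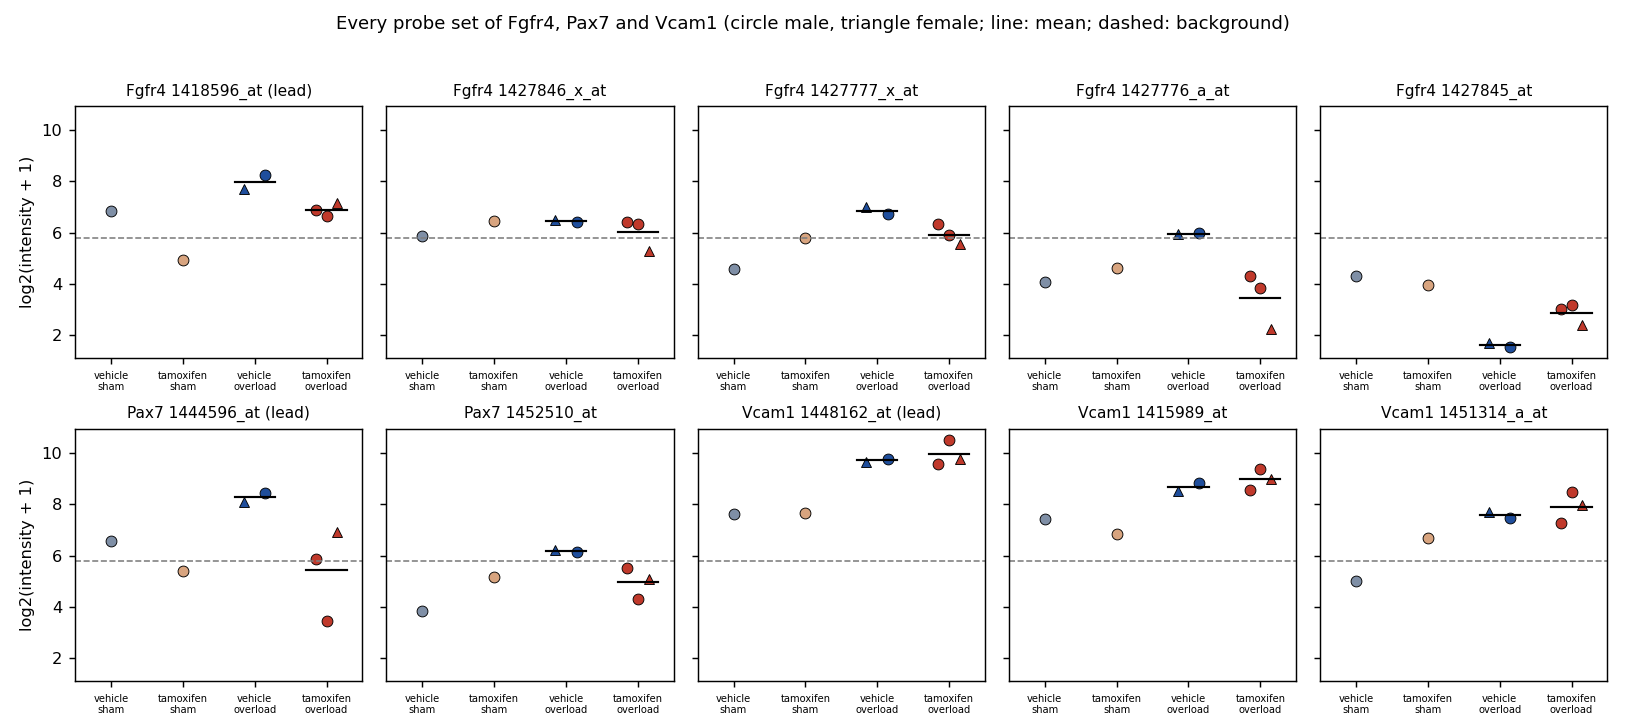
Log2(intensity + 1) of every probe set of Fgfr4, Pax7 and Vcam1 on the 7 arrays, with the background level of 5.79 dashed; circles are males, triangles females and lines group means. The 3 Vcam1 probe sets are higher on all 5 overload arrays than on both sham arrays, both Pax7 probe sets are lower on tamoxifen than on vehicle overload arrays, and the Fgfr4 probe sets differ in their response to overload.

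Megf10, a scavenger-type receptor with epidermal growth factor repeats that is linked to Notch signalling in satellite cells, was just above background on both sham arrays, at 58.5 and 63.7. It was at 302 and 499 on the vehicle overload arrays and at 172, 176 and 327 on the tamoxifen overload arrays, the female array of which exceeded the female vehicle array. Both overload groups lay above both sham arrays. Overload raised Megf10 by 2.14 ± 0.38 (SE; limma adjusted p = 0.006), but by 1.44 without vehicle overload replicate 2, which did not pass (adjusted p = 0.055). Within vehicle the rise was 2.61 ± 0.54 (adjusted p = 0.0251), lost without the same array (1.44) and with quantile normalization (2.30). Within tamoxifen the value was 1.67 ± 0.49 (adjusted p = 0.0572), which passed without tamoxifen overload replicate 1 (1.86), without either female array (1.44) and with no sex term (1.74). The tamoxifen difference in overload was -0.82 ± 0.38 (limma adjusted p = 0.486), and 0.12 without vehicle overload replicate 2.

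Of 14 measured partners, ligands and cofactors of Calcr and Fgfr4, 3 rose and 2 fell with overload, beside 14.7% and 8.16% of all genes. Those that rose were the collagen V chains, ligands reported for the calcitonin receptor in the niche: Col5a2 by 3.39 ± 0.14, Col5a1 by 3.08 ± 0.17 and Col5a3 by 1.63 ± 0.16 (SE; limma adjusted p = 1.62e-05, 5.91e-05 and 0.000501). Ramp1, which modifies the ligand specificity of calcitonin-family receptors, fell by 1.78 on the log2 scale (adjusted p = 0.000371), from 5104 and 5469 on the sham arrays to between 1332 and 1734 on the overload arrays. Fgf1, a growth factor ligand, fell by 0.99 (adjusted p = 0.0106). Of 12 Megf10 relatives and Notch genes 2 rose and 1 fell, shares close to those of all genes. The receptor Notch2 rose by 1.36 and the ligand Jag1 by 0.57 (limma adjusted p = 0.00106 and 0.0349). The Notch target Hes1 fell by 0.61 (adjusted p = 0.0295). None of these genes passed for tamoxifen against vehicle in overload, nor did any other gene measured.

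Cdh15 (chr8:122848374-122867397), M-cadherin, joins satellite cells to the fibre and is also made by myoblasts. Its intensities were 595 and 458 on the vehicle and tamoxifen sham arrays. They were 538 and 867 on the vehicle overload arrays and 493, 393 and 522 on the tamoxifen overload arrays. The female arrays of the overload groups were nearly level, and the vehicle sham array lay above 4 of the 5 overload arrays. Overload against sham gave 0.18 ± 0.24 (SE; limma adjusted p = 0.668), with a 95% confidence interval of -0.38 to 0.73. The sign of this value was not stable, being -0.22 without vehicle overload replicate 2 and -0.11 with median centring. Tamoxifen against vehicle in overload was -0.58 ± 0.24 (limma adjusted p = 0.465, unadjusted p = 0.0439), lower on 3 of 3 arrays, and -0.04 without vehicle overload replicate 2.

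Vcam1 (chr3:116110020-116129688), an immunoglobulin-type ligand of integrins, had intensities of 194 and 202 on the vehicle and tamoxifen sham arrays. It was at 799 and 880 on the vehicle overload arrays and at 767, 1435 and 866 on the tamoxifen overload arrays. The treatments overlapped in overload and the surgeries did not. Overload raised Vcam1 by 2.28 ± 0.26 (SE; limma adjusted p = 0.00103), by 2.22 ± 0.37 within vehicle (adjusted p = 0.0118) and by 2.35 ± 0.34 within tamoxifen (adjusted p = 0.00458). The vehicle call was lost without vehicle overload replicate 2 (2.32, adjusted p = 0.0758). The other probe sets, 1415989_at and 1451314_a_at, also rose for the mean of both treatments, by 1.73 and 1.83 (limma adjusted p = 0.00411 and 0.0141). Within vehicle 1451314_a_at passed (2.49, adjusted p = 0.0355) and 1415989_at did not (1.29, adjusted p = 0.0858). Within tamoxifen 1415989_at passed (2.17, adjusted p = 0.00787) and 1451314_a_at did not (1.17, adjusted p = 0.171). Tamoxifen against vehicle gave 0.20 ± 0.26 (limma adjusted p = 0.807), with a 95% confidence interval of -0.41 to 0.80.

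Of 10 partners of Vcam1 and Cdh15, 5 rose with overload and none fell, beside 14.7% and 8.16% of all genes. The integrin chains Itga9, Itgb1 and Itga4, which form receptors for Vcam1, rose by 1.12, 0.84 and 0.74 (limma adjusted p = 0.0113, 0.00673 and 0.0408). Msn, which links such membrane proteins to actin, and Ctnna1, the catenin that links cadherins to it, rose by 0.94 and 0.71 (adjusted p = 0.00595 and 0.0088). None of the 10 passed for tamoxifen against vehicle in overload, nor did any other gene measured.

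Markers of other cell types, only some of which make Vcam1, were read for overload as well. Of all genes 14.7% rose and 8.16% fell. All 10 macrophage markers rose (median 2.27), with summed intensities of 3568 and 5403 on the vehicle and tamoxifen sham arrays, 14088 to 16700 on vehicle overload arrays and 17584 to 24930 on tamoxifen overload arrays. Of 9 fibroblast and fibro-adipogenic markers 7 rose and none fell (median 2.00), and their sum went from 38829 and 49114 on the sham arrays to between 104385 and 129725 on the overload arrays. Of 10 endothelial markers 2 rose and 1 fell (median 0.33), with sums of 7825 and 8511 on the sham arrays, 7790 to 11489 in vehicle overload and 10646 to 12264 in tamoxifen overload. All 10 myofibre markers had negative values (median -0.32) and none passed. Of 10 pericyte and smooth muscle markers 2 rose, of 6 tendon markers 3 rose and of 6 Schwann markers 1 fell, while none of 6 T, B and NK cell markers passed and Cd3e was above background on no array. The part of these cells in the rises of Vcam1, Msc, Fgfr4 and Megf10 was not tested.

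Chrdl2 (chr7:100006404-100034728), a chordin-like protein that binds bone morphogenetic proteins, gave 87.9 and 92.2 on the vehicle and tamoxifen sham arrays. It was at 61.9 and 69.5 on the vehicle overload arrays and at 57.1, 39.2 and 49.3 on the tamoxifen overload arrays, the last 2 below background. The order of groups was both shams, then vehicle overload, then tamoxifen overload, with no overlap between the overload groups or between overload and sham. Neither difference passed: overload against sham was -0.66 ± 0.42 (SE; limma adjusted p = 0.313), and tamoxifen against vehicle in overload -0.45 ± 0.42 (limma adjusted p = 0.706). Chrdl2 was thus the one member whose overload values were negative in both treatments, at -0.40 within vehicle and -0.92 within tamoxifen. Of 15 bone morphogenetic protein genes around it 2 rose and 2 fell with overload, beside 14.7% and 8.16% of all genes. Those that rose were its relative Chrdl1 by 1.89 ± 0.28 and the signal transducer Smad1 by 0.80 (limma adjusted p = 0.00284 and 0.0106). The receptors Bmpr1b and Bmpr2 fell, by 1.09 and 0.62 on the log2 scale (limma adjusted p = 0.00782 and 0.012).

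The sham arrays, 1 of each treatment, were compared with no test. Of the 8 members above background on either array, 3 had measured values more than 2-fold lower with tamoxifen, beside 2.38% of 13044 genes, and 0 more than 2-fold higher, beside 5.43%. Myf5 was 2.36-fold lower. The tamoxifen values of Fgfr4 and Pax7 were below background, so that Fgfr4 was at least 2.10-fold lower and Pax7 at least 1.70-fold lower, which does not reach the 2-fold limit as a bound. The Fgfr4 value belongs to its lead probe set, since 1427846_x_at was above background on both sham arrays and higher with tamoxifen (58.0 with vehicle, 86.3 with tamoxifen). On 1427777_x_at (23.0 and 54.0) and 1427776_a_at (15.8 and 23.5) both sham arrays were below background. The Pax7 bound likewise belongs to its lead probe set. On 1452510_at both sham arrays were below background, at 13.4 with vehicle and 35 with tamoxifen. The log2 differences of Cdh15, Megf10, Vcam1 and Chrdl2 were -0.38, 0.12, 0.06 and 0.07. The 5th and 95th percentiles over the same 13044 genes were -0.62 and 1.04, so that Pax7, Myf5 and Fgfr4 lay below the lower one.

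Both sexes were present in each overload group, so the tamoxifen difference can be read within sex, though with no replicates there. For Pax7 the female arrays differed by -1.18 and the 2 male tamoxifen arrays differed from the male vehicle array by -2.57 and -4.99, the last from a level below background. For Fgfr4 these values were -0.56, -1.37 and -1.62, and for Calcr -1.92, -4.50 and -1.97, with all tamoxifen levels below background. For Myf5 they were -0.10, -1.98 and -2.60, for Cdh15 -0.04, -0.81 and -1.14, and for Megf10 0.12, -1.53 and -1.50. Vcam1 gave 0.12, -0.20 and 0.71, Msc -0.02, -1.21 and -0.08, and Chrdl2 -0.32, -0.28 and -0.81. The female pair gave a smaller difference than either male pair for every member but Chrdl2, though narrowly for Calcr, Msc and Vcam1. Calcr and 1 male Pax7 array were read from levels below background. The share of all genes with this order was not computed. Both male pairs use the same vehicle array, replicate 2, on which 7 of the 9 members were highest, beside 13.9% of genes above background. Whether sex or the individual arrays set this was not tested.

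**Figure D4:**
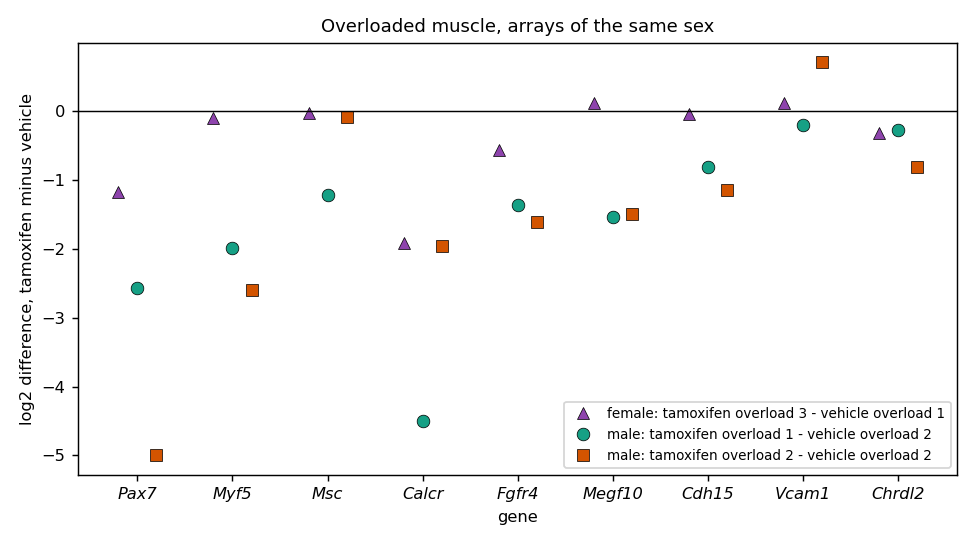
Tamoxifen minus vehicle in overloaded muscle for each gene as a log2 difference between arrays of the same sex: female tamoxifen array 3 minus female vehicle array 1 (triangles), and male tamoxifen arrays 1 (circles) and 2 (squares) minus male vehicle array 2. Pax7, Myf5, Msc, Calcr, Fgfr4, Cdh15 and Chrdl2 lie below zero in all 3 pairs. The female pair lies near zero for Myf5, Msc, Megf10, Cdh15 and Vcam1.

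The other genes of the same lineage were read from 2 lists. Of 24 further satellite cell genes 10 rose with overload and 2 fell, beside 14.7% and 8.16% of all genes, with a median of 0.60. Those with the largest rises were Ncam1, an adhesion molecule (3.11 ± 0.28), Peg3, an imprinted gene of muscle progenitors (2.64 ± 0.27), the chemokine receptor Cxcr4 (2.50 ± 0.33) and the cell cycle inhibitor Cdkn1c (1.61 ± 0.26; SE, limma adjusted p = 0.000387, 0.000667, 0.00172 and 0.00405). The Wnt receptor Fzd7 fell by 1.42 on the log2 scale (adjusted p = 0.000626) and Hes1 as given above. For tamoxifen against vehicle in overload 0 of the 24 passed, nor did any other gene measured. Of the 24, 15 were negative, with a median of -0.10, nearer to that of all genes (0.03) than the median of the 9 members.

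Of 12 genes of myoblast commitment and fusion 8 rose with overload and none fell, beside 14.7% and 8.16% of all genes, with a median of 2.02. Mymk, the fusogen of myoblasts, was below background on both sham arrays (4.14 and 22.4) and at 605 to 1881 on the overload arrays, and Mymx, its partner, at 7.28 and 4.61 and then 95.1 to 1237 (limma adjusted p = 0.000171 and 0.00169). Embryonic myosin Myh3 rose by 4.73 ± 0.16 and cardiac actin Actc1 by 3.88 ± 0.22 (SE; limma adjusted p = 6.29e-06 and 5.91e-05). Among those that did not pass was Myod1, a determination factor like Myf5, picked out after its values were seen, at -0.65 ± 0.34 (limma adjusted p = 0.222). For tamoxifen against vehicle in overload 0 of 12 passed, nor did any other gene measured, and 10 of the 12 were negative, with a median of -0.42.

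Likeness of pattern was read as Pearson's r of log2 levels over the 7 arrays against 12491 genes above background, as a description only, since arrays of one group share their condition. For Pax7 the most alike were Bicd2 (r = 0.995), Cdkl2 (0.973), Nae1 (0.972), Stx4a (0.970) and Rplp0 (0.964), and the nearest other member was Cdh15, at rank 100 (0.833). For Cdh15 they were Aamdc (0.982), Gps1 (0.956), Ganc (0.955), Qdpr (0.954) and Abhd8 (0.953), with Myf5 at rank 147 (0.853). For Vcam1 they were Uggt1 (0.997), Gusb (0.996), Tpcn2 (0.996), 2810025M15Rik (0.995) and Skp2 (0.994), with Msc at rank 1036 (0.935). None of the other 8 genes was among the 5 most alike of Pax7, Cdh15 or Vcam1.

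**Figure D5:**
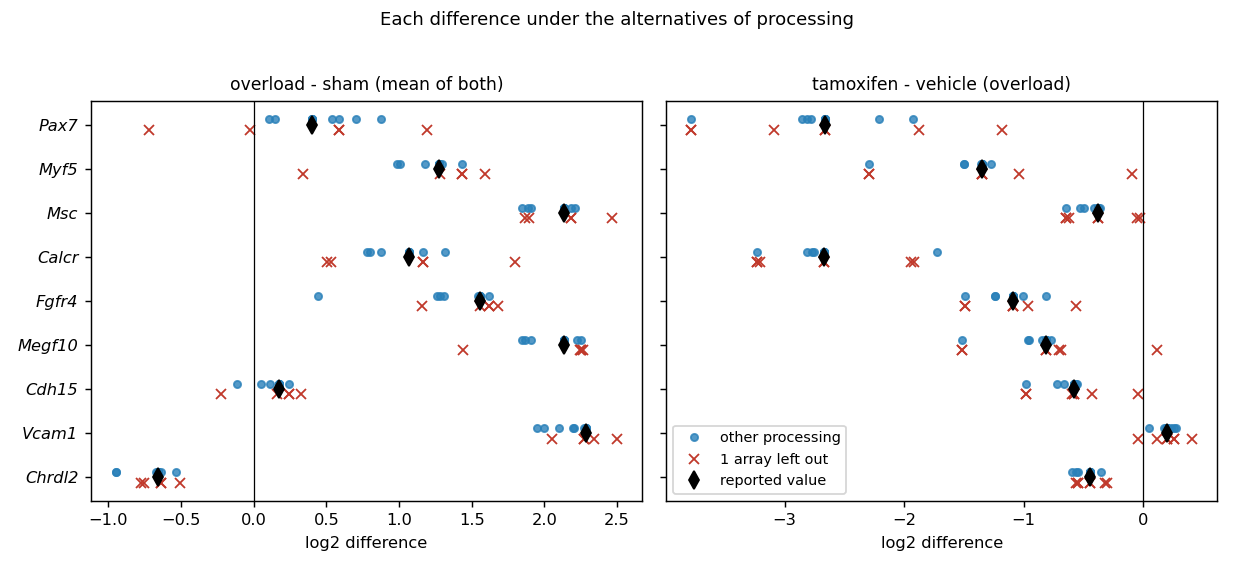
Log2 difference of each gene as reported (diamonds), under other processing (circles) and with 1 array left out (crosses), for overload against sham as the mean of both treatments (left) and tamoxifen against vehicle in overload (right). Pax7 and Cdh15 cross zero on the left and Megf10 and Vcam1 on the right, while each of the other genes keeps its sign in these panels.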

How the data were processed

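Plantaris RNA (1 µg) was measured on 7 Affymetrix Mouse 430 2.0 arrays, per the labels' protocols. The deposited values are linear intensities, which the authors had scaled so that each array has a mean of 500 once the lowest and highest 2% of probe sets are dropped, as the values show. The submitters' processing notes name Partek, with no word on how probes were summarised.

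Levels are log2(intensity + 1). Of 45101 probe sets, 64 controls, 932 with several symbols and 9160 with none were left out, and each of the 18193 genes is led by the brightest of its probe sets on average. In limma 3.58.1 (R 4.3.3) group and sex were fitted as terms over all genes, with an intensity trend in the prior variance (2 residual and 5.95 prior degrees of freedom). A call is a two-sided Benjamini-Hochberg adjusted p under 0.05, and SE is limma's moderated standard error. Where a whole group lay at or below background, the fold is a bound of the other group's mean, taken without the sex term, against that level.

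The 9 members and the lists were chosen with earlier results of these data known. Named are the members, up to 4 genes of each list past the test with the greatest differences, and the 5 genes most like Pax7, Cdh15 and Vcam1. Alternatives covered the sex term, males alone, overload arrays alone, quantile normalization, median centring, a pseudocount of 16, a filter on dim genes, testing all probe sets, averaging them per gene, the intensity trend, an ordinary linear model, and each array left out in turn. The code was tested on simulated data. Python 3.11.15 with matplotlib 3.10.9 made the figures.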

Additional observations from a re-analysis of the deposited data

How the results depend on the processing

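Of 715 values of the 9 genes under 18 alternatives, 633 kept their direction and side of the threshold, 39 lost a call, 13 gained one and 30 changed sign. Only called values can lose a call, and these were 4, 3 and 3 members for the mean, vehicle and tamoxifen contrasts. For the mean of both treatments Msc and Vcam1 each lost theirs under 2 of 15 alternatives, Megf10 under 3 and Fgfr4 under 4. Within vehicle Vcam1 lost it under 3 of 16, Megf10 under 4 and Msc under 12. Within tamoxifen Vcam1 lost it under 2 of 16, Msc under 3 and Fgfr4 under 4. Leaving out either female array leaves nearly the fit of males alone. Without the intensity trend, and in the ordinary linear model, the members called numbered 0 in each of the 3 overload contrasts, and so did all genes. With quantile normalization 1 member was called within vehicle. With 1 array left out, members called ranged from 2 to 5 for the mean of both treatments, from 0 to 4 within vehicle and from 0 to 1 for tamoxifen against vehicle in overload. The 1 is Pax7 without tamoxifen overload replicate 1, when 227 of all genes passed. The members lower on every tamoxifen than on every vehicle overload array were counted after seeing the data. They numbered 6 to 8 with 1 overload array left out, beside 17.0% to 29.7% of all genes. Leaving out an array cannot lower this count, so the range does not show that it is stable. Of all genes, 4163 passed for the mean of both treatments and 1924 without vehicle overload replicate 2. Within vehicle 1599 passed, and 371 without that array. Median centring moved the median of all genes to -0.22 for the mean of both treatments and the higher share of calls from 64.3% to 39.1%.

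The values that changed sign with 1 array left out ranged as follows. For the mean of both treatments Pax7 ran from -0.72 to 1.19 and Cdh15 from -0.22 to 0.32. Within vehicle Pax7 ran from -0.70 to 1.90, Myf5 from -0.24 to 1.96 and Cdh15 from -0.39 to 0.54. Within tamoxifen Pax7 ran from -0.99 to 0.83, Calcr from -1.38 to 0.52 and Cdh15 from -0.058 to 0.30. For tamoxifen against vehicle in overload Megf10 ran from -1.51 to 0.12 and Vcam1 from -0.041 to 0.41. For the interaction Myf5 ran from -1.05 to 1.15, Msc from -0.23 to 0.39, Cdh15 from -0.60 to 0.33 and Vcam1 from -0.10 to 0.35. With males alone the interaction of Msc was -0.23 and the tamoxifen overload value of Cdh15 -0.058. With median centring Cdh15 was -0.11 for the mean, -0.027 within vehicle and -0.20 within tamoxifen, and with quantile normalization -0.082 within tamoxifen. Without the sex term Pax7 was 0.021 within tamoxifen. With a pseudocount of 16 the interaction of Msc was -0.022. With probe sets averaged per gene the interactions of Fgfr4 and Vcam1 were -0.82 and -0.10. The causes were not tested. The mean of both treatments and the interaction have no value without either sham array. No paired analysis was possible because the labels give the groups no shared replicate numbers. A single array for each sham group, and levels of Calcr, Chrdl2 and Pax7 near or below background, also limit precision.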

Other observations

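On 1 array, male vehicle overload replicate 2, 7 of the 9 members (Pax7, Myf5, Msc, Calcr, Fgfr4, Megf10 and Cdh15) had their highest level, beside 13.9% of 12492 genes above background. Vcam1 was highest on tamoxifen overload replicate 2, as were 24.5% of those genes, and Chrdl2 on the tamoxifen sham array, as were 15.5%. The count was chosen after the values were seen.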
